A study of Mus musculus with 6 samples.

Results

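Fatty acid synthesis genes were compared between mouse embryonic hearts with and without Hdac3 in the Isl1 lineage. The set was 8 genes named by symbol: Acly, Acaca, Fasn, Me1, Elovl6, Scd1, Scd2 and Srebf1. An array row was used where the platform annotation gave it exactly 1 gene symbol. This found 7 of the 8 genes, each with 1 row, among 22180 genes measured in the same way. The row for Scd2 carried several symbols, so Scd2 was not analysed here.

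The hearts came from C57BL/6 embryos at embryonic day 9.5, and each of the 6 Affymetrix arrays held RNA from a pool of hearts. The controls were 3 pools of Hdac3-flox/flox hearts, which carry the floxed alleles and no Cre. The other 3 pools were Hdac3-flox/flox; Isl1-Cre hearts, called Hdac3-Isl1KO, in which Cre acts in cells that express Isl1, including the second heart field progenitors of the outflow tract and right ventricle. Both groups carry the floxed alleles and differ in Cre, so effects of the Cre allele and of the loss of Hdac3 cannot be told apart. The study addresses the effect of losing this histone deacetylase in the second heart field.

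Cells build fatty acids in the cytosol from citrate that leaves the mitochondria. Acly (ATP citrate lyase) splits citrate to acetyl-CoA, Acaca (acetyl-CoA carboxylase alpha) makes malonyl-CoA from it, and Fasn (fatty acid synthase) joins these units into palmitate with NADPH, part of which comes from Me1, the cytosolic malic enzyme. Elovl6 lengthens palmitate to stearate, and the Scd enzymes put a double bond into these chains. Srebf1 encodes a membrane-bound transcription factor that is cut in the Golgi and switches on these genes, and Hdac3 in the liver is known to hold lipid synthesis genes down together with the NCoR corepressors.

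The start regions of Fasn, Acly and Me1 are shown because their mean differences below ran from positive through small to negative. They are the 250 bases before the RefSeq start (GRCm38.p6), read 5′ to 3′ on the strand of the gene. Capitals mark the letters CCAAT, a box bound by NF-Y, or GGGCGG, a GC box of the Sp family, on either strand. The regions are chr11:120824548-120824797 (minus strand) for Fasn, chr11:100528001-100528250 (minus strand) for Acly and chr9:86695915-86696164 (minus strand) for the outer of 2 listed starts of Me1.
Fasn: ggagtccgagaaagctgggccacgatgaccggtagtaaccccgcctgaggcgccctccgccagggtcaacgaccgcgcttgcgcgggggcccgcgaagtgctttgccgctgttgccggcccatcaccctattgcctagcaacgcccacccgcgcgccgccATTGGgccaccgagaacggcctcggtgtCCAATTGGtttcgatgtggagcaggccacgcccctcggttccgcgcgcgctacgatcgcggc
Acly: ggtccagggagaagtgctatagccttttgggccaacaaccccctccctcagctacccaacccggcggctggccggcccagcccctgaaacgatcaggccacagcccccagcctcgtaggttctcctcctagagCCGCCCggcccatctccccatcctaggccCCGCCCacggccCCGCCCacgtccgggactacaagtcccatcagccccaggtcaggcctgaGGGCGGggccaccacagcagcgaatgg
Me1: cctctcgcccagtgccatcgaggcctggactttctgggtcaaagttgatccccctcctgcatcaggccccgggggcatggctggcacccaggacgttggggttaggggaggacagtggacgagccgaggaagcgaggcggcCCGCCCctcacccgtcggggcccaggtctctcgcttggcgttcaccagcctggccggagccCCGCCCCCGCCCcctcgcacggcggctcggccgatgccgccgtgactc

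In these windows Fasn held 3 CCAAT matches and 0 GC boxes. Of the Fasn matches, the pair nearest the start overlapped on opposite strands, at bases 62 to 58 and 59 to 55 before the start. Acly held 4 GC boxes and 0 CCAAT matches, and the outer start of Me1 held 3 GC boxes and 0 CCAAT matches. The inner start of Me1 held the reverse, 1 CCAAT match and 0 GC boxes. Of the 3 listed starts of Srebf1, whose difference was also negative, numbers 1 and 3 held 1 CCAAT match each. Numbers 2 and 3 held 2 GC boxes each. The windows of Acaca and Elovl6 held 0 of both. Such matches are common, since 33.8% of the 32851 listed windows of this length held CCAAT and 32.7% held GGGCGG. None of the 9 windows listed for 6 of the 8 genes held the SREBP site TCACNCCAC (1.05% of all windows) or the E-box CACGTG (6.02%), searched on both strands. The single window listed for Acaca may begin at an internal exon and need not be a promoter. A match, or its lack, describes these letters and says nothing about binding. The 3 printed genes were picked by their differences, so no link between letters and differences can be read from them.

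The values are RMA log2 expression values, in which 1 unit is a doubling. Array medians lay between 5.64 and 5.71, and correlations between arrays between 0.980 and 0.989. The array least like the rest was control replicate 2, with a mean correlation of 0.982. Hdac3 was lower in Hdac3-Isl1KO by 0.47 on the log2 scale as a mean over whole hearts (9.68 ± 0.05 against 9.21 ± 0.10, SD, n = 3 each), with no overlap between groups (limma adjusted p = 0.0636). The position of its probes in the gene is unknown here, so this is a partial check of the labels. The cardiomyocyte markers Tnnt2, Actc1, Myl7, Myh6, Myh7, Nkx2-5, Tnni1 and Ttn all lay above the median row, so the RNA carried the labelled tissue.

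Of the 7 genes, 4 had higher means and 3 lower means in Hdac3-Isl1KO, and the median difference was 0.06, against 9.4e-05 over all genes. None passed the threshold of 0.05 on the limma p-value adjusted over all genes, where 0.428% of genes did. At a threshold of 0.10 there was 1, Fasn, where 1.43% of all genes passed. At an unadjusted limma p under 0.05 there were 3, Fasn, Acaca and Scd1, all higher, where 6.57% of all genes were higher at that level. The groups did not overlap, with Hdac3-Isl1KO higher, for these 3 and for Acly, where 9.41% of all genes showed that order. The set was chosen with the higher Fasn values known, so these shares are no test of it. All 7 rows were brighter than the median row, from the 69.0th to the 98.7th percentile. In whole hearts, more cells that express a gene and more RNA per cell cannot be told apart.

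**Figure D1:**
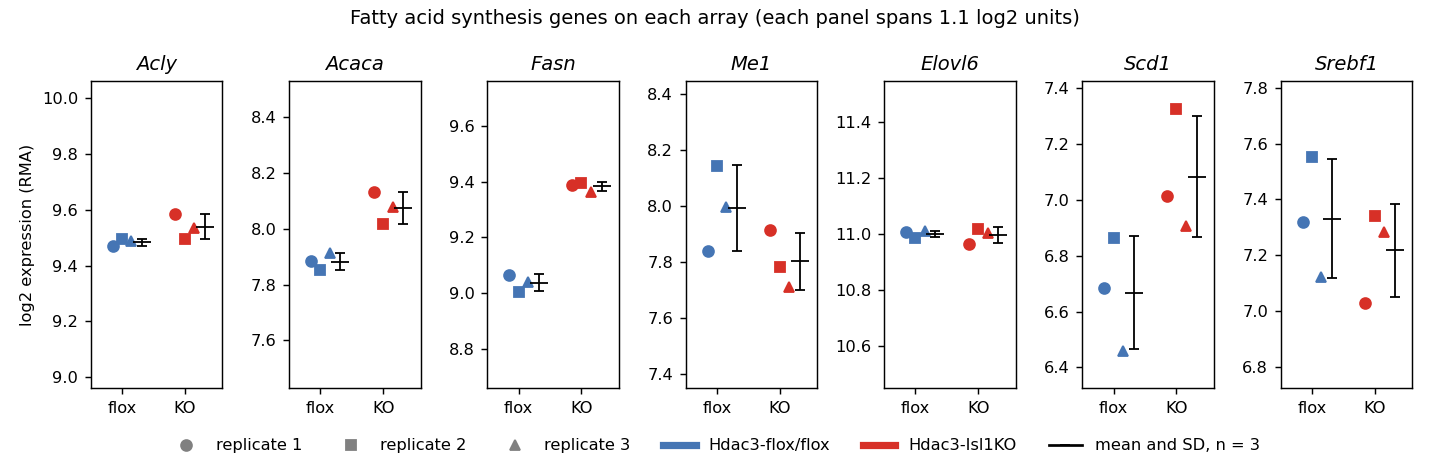
The log2 expression of 7 fatty acid synthesis genes on each of 6 arrays, 1 panel a gene, with symbols for replicates and black bars for the mean ± SD of 3 arrays per group; each panel has its own level, and all span the same height. Fasn shows the widest gap between the groups, 0.30, Elovl6 is nearly level, and Scd1, Srebf1 and Me1 scatter most.

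Fasn, which carries every step from malonyl-CoA to palmitate in 1 protein, read 9.07, 9.01 and 9.04 in Hdac3-flox/flox replicates 1 to 3 and 9.39, 9.39 and 9.36 in Hdac3-Isl1KO. Every Hdac3-Isl1KO array lay above every control, with a gap of 0.30 between the groups. The mean went from 9.04 ± 0.03 to 9.38 ± 0.02 (SD, n = 3 each), a difference of 0.34 (95% interval 0.20 to 0.49), or 1.27-fold. Its unadjusted limma p was 0.000856 and its adjusted p 0.0846, which missed the threshold. The SDs within groups were small beside the median SD over all genes, dim ones included, 0.12. So were those of the bright members Acly (0.014 in the controls, 0.045 in Hdac3-Isl1KO) and Elovl6 (0.012 and 0.028). When limma's variance prior was trended on expression level the adjusted limma p was 0.00194, and it also passed when genes dimmer than the median row (0.0143) or the 25th percentile row (0.0437) were left out, so the call rests on that choice. The difference stayed between 0.33 and 0.36 in all 16 alternatives, while the adjusted p ranged from 0.00194 to 0.297.

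Acaca, the committed and most regulated step of the route, read 7.88, 7.85 and 7.91 in the controls and 8.13, 8.02 and 8.08 in Hdac3-Isl1KO. The groups did not overlap, and the gap between them was 0.11. The difference was 0.19 (95% interval 0.04 to 0.35), or 1.14-fold (limma adjusted p = 0.260). It did not pass in any alternative, where the adjusted limma p ranged from 0.0965 to 0.477 and the difference from 0.17 to 0.25.

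Acly, which supplies the acetyl-CoA, read 9.468, 9.495 and 9.487 in the controls and 9.585, 9.495 and 9.535 in Hdac3-Isl1KO. The groups only just failed to overlap, since Hdac3-Isl1KO replicate 2 equalled the highest control to 3 decimals. The difference was 0.06 (95% interval -0.09 to 0.21, or 0.936-fold to 1.153-fold, limma adjusted p = 0.737). Without Hdac3-Isl1KO replicate 1 the difference was 0.03.

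Scd1, which makes oleate and palmitoleate, had the largest difference of the 7 and a wide spread within both groups. It read 6.68, 6.86 and 6.46 in the controls and 7.02, 7.33 and 6.91 in Hdac3-Isl1KO, so the lowest Hdac3-Isl1KO array stood 0.04 above the highest control. The mean went from 6.67 ± 0.20 to 7.08 ± 0.22 (SD, n = 3 each), a difference of 0.42 (95% interval 0.07 to 0.76) or 1.33-fold, with an unadjusted limma p of 0.0236 and an adjusted p of 0.266. The value depended on the arrays: it was between 0.29 and 0.51 with any 1 array left out. Probes for the close relatives of Scd1 can share sequence with it, so its row may read some of their RNA.

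Elovl6, the palmitate elongase, had the smallest difference of the 7. It read 11.005, 10.987 and 11.009 in the controls and 10.963, 11.017 and 11.005 in Hdac3-Isl1KO, and the groups overlapped. The difference was -0.0055 (95% interval -0.15 to 0.14, or 0.901-fold to 1.102-fold, limma adjusted p = 0.979). The sign of so small a value turned under quantile normalization and without Hdac3-Isl1KO replicate 1.

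Me1, a source of NADPH for chain building, had the lowest difference of the 7, at -0.19. It read 7.837, 8.145 and 7.998 in the controls and 7.912, 7.783 and 7.710 in Hdac3-Isl1KO, and Hdac3-Isl1KO replicate 1 lay above the lowest control. The 95% interval ran from -0.43 to 0.05 (limma adjusted p = 0.443). The difference was -0.12 without Hdac3-flox/flox replicate 2 and -0.27 without Hdac3-flox/flox replicate 1.

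Srebf1, the transcription factor gene, read 7.32, 7.55 and 7.12 in the controls and 7.03, 7.34 and 7.28 in Hdac3-Isl1KO. The groups overlapped over most of their range. The difference was -0.11 (95% interval -0.43 to 0.20, limma adjusted p = 0.743), and it was -0.0040 without Hdac3-flox/flox replicate 2, -0.020 without Hdac3-Isl1KO replicate 1, -0.22 without Hdac3-flox/flox replicate 3 and -0.18 without Hdac3-Isl1KO replicate 2. Which of the Srebf1 transcripts the row reads is unknown here, and the array value does not measure cutting of the protein.

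**Figure D2:**
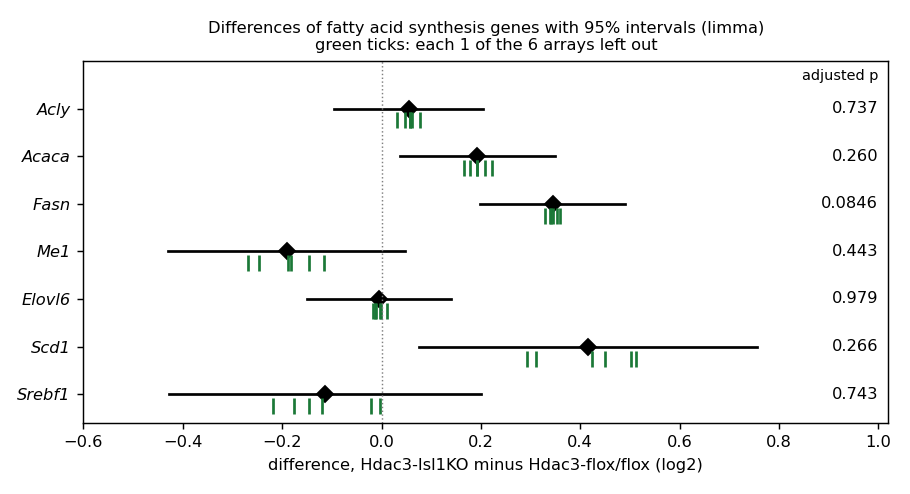
Differences between group means (Hdac3-Isl1KO minus Hdac3-flox/flox, log2) for the 7 genes, as diamonds with 95% limma intervals and adjusted p-values at the right; green ticks give the difference with each array left out in turn. The intervals of Fasn, Acaca and Scd1 lie above 0, and the ticks of Fasn stay within 0.33 to 0.36 while those of Scd1 spread from 0.29 to 0.51.

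The 7 profiles were not alike in detail. Likeness was measured as the root mean square difference over the 6 arrays between log2 values centred on each gene's own mean, so a lower value is closer. The member nearest to Fasn was Acaca, at 0.085, and the nearest to Acaca was Acly, at 0.072. Scd1 was farther from its nearest member, Fasn, at 0.177. In the controls Scd1 and Srebf1 were both highest on replicate 2 and lowest on replicate 3, and in Hdac3-Isl1KO both were highest on replicate 2. Fasn was also highest on replicate 2 in Hdac3-Isl1KO, but lowest on replicate 2 in the controls.

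Among 11725 genes at or above the median row, with predicted genes and olfactory and vomeronasal receptors left out, the profile of Fasn was closest to those of Sem1, a proteasome subunit gene (0.026), and Cited2, a transcriptional coregulator (0.033). Their own differences were 0.34 and 0.35. The nearest to Acaca were Ndufc2, a respiratory complex I subunit (0.019), and Ccdc42 (0.024). The nearest to Scd1 were Klk7, a serine protease (0.097), and Lhx9, a LIM homeobox factor (0.098). For Me1 they were Kcnk5, a potassium channel (0.020), and Cog7, a Golgi tethering subunit (0.027), and for Srebf1 Rasgef1a (0.043) and Dync2li1 (0.049). The nearly level genes Acly (Wdr18, 0.0031, and Pradc1, 0.010) and Elovl6 (Lrrc57, 0.0075, and the growth factor gene Pdgfa, 0.011) had closer neighbours. With only 6 arrays such likeness is a description.

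Around these enzymes, 85 other genes of the pathway were listed by role, and 76 had a row of their own. None passed the limma threshold over all genes, and 10 had an unadjusted limma p under 0.05, 3 higher and 7 lower, where over all genes 6.57% were higher and 7.96% lower at that level. The groups did not overlap for 6 higher and 14 lower genes, against 9.41% and 12.4% of all genes. Their median difference was -0.02, and 34 were above and 42 below 0.

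Of 12 close relatives of these genes 0 passed, 7 were above and 5 below 0, and the median was 0.02. Acacb, the carboxylase whose malonyl-CoA restrains fatty acid entry into mitochondria, read 6.58, 6.79 and 6.70 in the controls and 6.47, 6.45 and 6.46 in Hdac3-Isl1KO. The groups did not overlap, and the difference of -0.23 (95% interval -0.41 to -0.05, limma adjusted p = 0.247) had the opposite sign to that of Acaca. Whether the differences of Acaca and Acacb differ from each other was not tested. Elovl5, which lengthens polyunsaturated chains, differed by -0.20 (limma adjusted p = 0.256) and Elovl2 by 0.17 (0.390). Srebf2, the sterol-directed relative of Srebf1, differed by 0.02 (95% interval -0.15 to 0.20).

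Of 9 genes that supply carbon and reducing power 0 passed the threshold, 4 were above and 5 below 0, and the median was -0.08. Mdh1, the cytosolic malate dehydrogenase that feeds Me1, differed by -0.26 (limma adjusted p = 0.204) and Idh2, the mitochondrial NADP-linked isocitrate dehydrogenase, by -0.20 (0.231). In both the groups did not overlap. Acss1, which makes mitochondrial acetyl-CoA from acetate, differed by -0.22 (0.314), but a dimmer row of it differed by 0.24.

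All 9 measured partners of the elongation cycle and desaturases of the fatty acid front end had negative differences, though the signs of Fads1 and Fads2 turned in other settings. The median was -0.10, and 0 passed the threshold. Fads3, which desaturates sphingoid bases, had the largest, -0.38 (95% interval -0.57 to -0.19, limma adjusted p = 0.125). It read 9.06, 9.10 and 9.20 in the controls and 8.78, 8.82 and 8.63 in Hdac3-Isl1KO, with no overlap. Tecr, the last reductase of the elongation cycle, and Hacd1, a dehydratase of the cycle, both differed by -0.14 (limma adjusted p = 0.400 and 0.482). Fads1 and Fads2, which make polyunsaturated fatty acids, had differences of -0.01 and -0.02 and changed sign in 3 and 2 of the 17 settings run.

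The separate mitochondrial route of fatty acid synthesis had 0 of 7 genes past the threshold, with a median of -0.01. The genes with the smallest p-values were Mcat, Cbr4 and Mecr, at -0.13, -0.17 and -0.09 (adjusted limma p from 0.506 to 0.746).

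Of 18 regulators of lipogenic genes and enzymes 0 passed, 9 were above and 9 below 0, and the median was -0.0038. Rxra, a partner of the LXR receptors, read 6.85, 6.79 and 6.72 in the controls and 7.08, 6.96 and 6.98 in Hdac3-Isl1KO, a difference of 0.22 with no overlap (limma adjusted p = 0.247). Nr1h3, which encodes LXR alpha, differed by 0.10 (95% interval -0.20 to 0.39), and Mlxipl, which encodes the glucose-responsive factor ChREBP, by -0.09 (-0.29 to 0.11). Insig1, which retains the SREBP proteins in the endoplasmic reticulum and is itself an SREBP target, differed by -0.13 (limma adjusted p = 0.452). Prkaa2, a catalytic subunit of the AMP-activated kinase that inactivates acetyl-CoA carboxylase, also differed by -0.13 (adjusted p = 0.393).

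In glycerolipid assembly 0 of 8 genes passed (median -0.06). Acsl4, which activates arachidonate, differed by -0.22 (limma adjusted p = 0.289), Dgat2, which finishes triglycerides, by 0.17 (0.496) and Acsl5 by -0.16 (0.582). Among sterol genes under SREBP control 0 of 13 passed, 9 were above and 4 below 0, and the median was 0.05. Mvd and Fdps, of the mevalonate route, differed by 0.19 and 0.17 with no overlap between groups (limma adjusted p = 0.277 and 0.293), and Sc5d, a late step, by -0.14 (0.398).

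**Figure D3:**
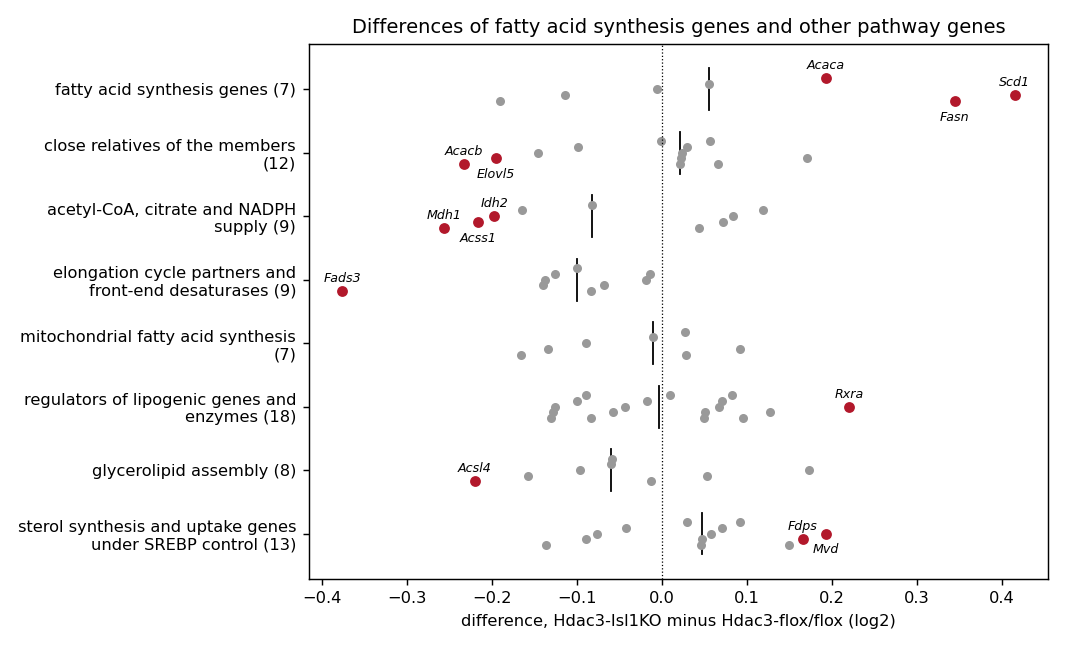
Each point is the difference of 1 gene (Hdac3-Isl1KO minus Hdac3-flox/flox, log2), in rows by role with the number of genes measured in brackets; vertical bars mark medians, and red named points had an unadjusted limma p under 0.05. Scd1 and Fasn lie farthest to the right of all genes plotted, and Fads3 lies farthest to the left.

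Cpt1a, the carnitine transferase that malonyl-CoA inhibits and that starts mitochondrial oxidation, fell. It read 6.65, 6.63 and 6.62 in the controls and 6.18, 5.99 and 5.99 in Hdac3-Isl1KO, a difference of -0.58 (limma adjusted p = 0.0427, and 0.00587 to 0.197 over all settings). It no longer passed when any 1 of the 6 arrays was left out. Fasn, which did not pass, and Cpt1a had opposite signs on the same arrays. Both were chosen with these directions known, so the contrast is no test.

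Some lists of markers of other cells that dissected hearts can carry differed between the same groups. The lists were put together with earlier results of these data known, so their counts are no test. Over all genes, 9.41% were higher and 12.4% lower without overlap. The adjusted limma threshold was passed by 0.428% of all genes, and 6.57% were higher at an unadjusted limma p under 0.05. All 8 epithelial markers had higher values in Hdac3-Isl1KO without overlap, though 0 passed over all genes (8 at an unadjusted limma p under 0.05), and their mean per array was 6.11 to 6.14 in the controls and 6.51 to 6.53 in Hdac3-Isl1KO. Of 15 markers of hepatic and yolk sac endoderm, cells that secrete lipoproteins, 14 had positive differences, 8 without overlap, 1 passed, and the mean was 5.18 to 5.30 against 5.56 to 5.61. Of these 15, 10 lay below the median row. The mean of 9 trophoblast and placental markers was 5.68 to 5.95 against 6.53 to 6.61. Of these 9, 8 had positive differences, 6 without overlap, and 5 passed as higher and 1 as lower. The 6 include Hand1, also a cardiac gene and the brightest of the list (8.54 against 8.70), which did not pass. The mean of 8 epicardial markers was 8.01 to 8.10 against 7.55 to 7.59. Of these, 7 had negative differences, 6 without overlap, and 3 passed. All 5 adipocyte markers lay below the median row, with a mean of 4.77 to 5.05 against 4.96 to 5.07. The 8 cardiomyocyte markers had means of 11.80 to 11.81 against 11.71 to 11.75. Without overlap 6 of them were lower and 1 higher, with differences from -0.19 to 0.16, and 0 passed. Means of the 6 endothelial markers were 9.08 to 9.12 against 9.05 to 9.08, and of the 8 neural markers 4.92 to 5.09 against 4.98 to 5.14. In both lists 0 had an unadjusted limma p under 0.05. Means of the 6 macrophage markers were 5.28 to 5.60 against 5.61 to 5.77. Of these 6, 5 had positive differences, 1 without overlap, 2 were higher at an unadjusted limma p under 0.05, and 0 passed. Means of the 6 primitive erythroid markers were 8.75 to 8.78 against 8.65 to 8.73. Without overlap 2 of these were higher and 2 lower, and 1 passed as lower. The part of these cell types in the values of Fasn, Acaca and Scd1 was not tested.

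**Figure D4:**
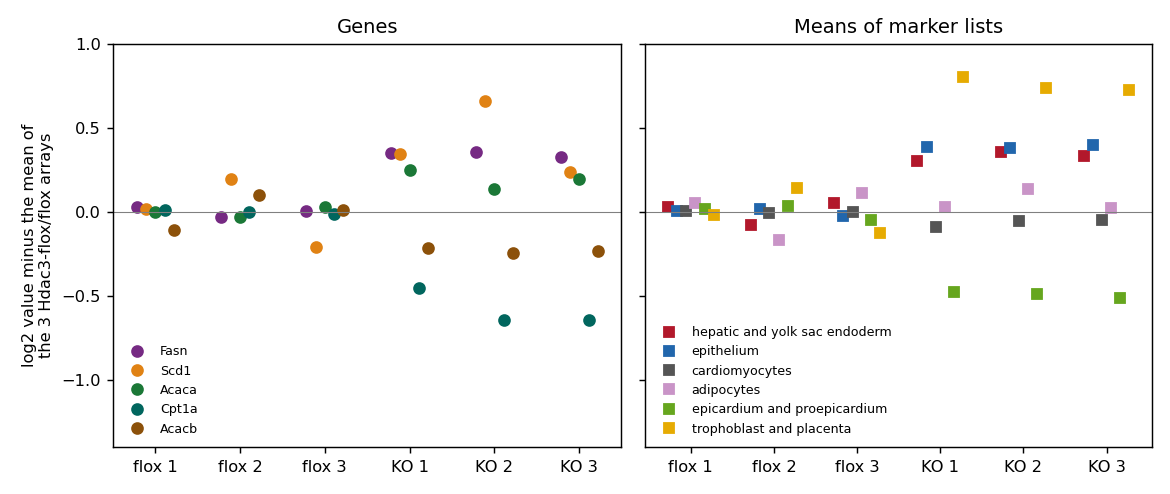
Left, log2 values of Fasn, Scd1, Acaca, Cpt1a and Acacb on each array, and right, mean log2 values of 6 marker lists, both minus the mean of the 3 Hdac3-flox/flox arrays; flox and KO name the 2 groups with their replicate numbers. Fasn, Acaca and Scd1 sit above 0 and Cpt1a and Acacb below 0 on all 3 Hdac3-Isl1KO arrays. There the epithelial, endoderm, trophoblast and, by less, adipocyte means are also above 0. The epicardial and, by less, cardiomyocyte means are below it.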

How the data were processed

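The authors deposited log2 expression values for 6 arrays of pooled embryonic heart RNA. Per the labels' protocols, biotinylated cDNA was made from 100 ng of total RNA with a whole-transcript kit, and the values were made with oligo and RMA per the submitters' processing notes. RMA quantile normalizes arrays and compresses differences of dim rows. The sources used here give no versions, probe positions or genome build. They do not say that pools came from separate litters, so p-values describe only the spread between pools, part of which may be technical. No depth applies to arrays, and their number limits the precision.

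Of 41345 rows, 23521 had 1 gene symbol, 1814 several and 16010 none listed. The brightest row per gene gave 22180 genes. Of the rows with 1 symbol, 23328 matched a RefSeq table (GRCm38.p6) and 193 did not, with 0 symbols changed. The test was two-sided, by lmFit and eBayes with a constant prior in limma 3.58.1 (R 4.3.3), on 4 residual and 6.92 total degrees of freedom, with Benjamini-Hochberg adjustment over all genes. Intervals are 95% intervals of that fit. The steps were tested on simulated data. Plots used matplotlib 3.10.9 in Python 3.11.15.

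The members and lists were chosen with earlier results of these data known, including the higher Fasn and the lower Cpt1a values. Named genes were all members, Hdac3, Cpt1a, Insig1, Srebf2, Mlxipl, Nr1h3, Acacb, the 3 genes of each pathway list with the smallest p-values, and the 2 genes nearest to each member, with predicted and receptor gene symbols left out. Fads1, Fads2 and the marker genes were named in addition. RefSeq promoter sequences matched 6 of 8 members, and Scd1 and Scd2 had no entry. Each array was left out in turn, and further alternatives were a block on replicate number, quantile normalization, median centring, filters on dim genes, the mean of rows, trended priors, array weights, rows with several symbols and a threshold of 0.10.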

Additional observations from a re-analysis of the deposited data

How the results depend on the processing

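The differences of Fasn, Acaca, Acly, Scd1, Srebf1 and Me1 kept their sign in all 16 alternatives. Elovl6, near 0, turned to 0.014 under quantile normalization and lay between -0.016 and 0.011 with single arrays left out. Fasn, at 0.34 in each case, passed the threshold with trended priors, plain or robust, and with only genes above the 25th percentile row or above the median row. The number of members past the threshold, 0, was 1 in these settings and at a threshold of 0.10. The number of wider pathway genes was 4 with trended priors, plain or robust (Fads3, Mdh1, Idh2 and Elovl5, all lower), and 1, Fads3, above the median row. Over all genes the 95 calls became 149 under quantile normalization, 243 with array weights, 235 and 617 above the 25th percentile and the median row, 866 with trended priors, plain or robust, 317 at a threshold of 0.10, and 2 to 25 with single arrays left out. With the replicate number as a block limma called 0 genes, and 2744 had an unadjusted p under 0.05. Deviations of same-numbered arrays correlated at -0.013, -0.086 and 0.040, and those of differently numbered arrays at -0.12 to 0.12. With 3 arrays per group these values cannot settle whether the numbers pair the pools. With the replicate block, with median centring and without each single array in turn, Cpt1a did not pass. The planned comparison of Scd1 with Scd2 was not run because the row for Scd2 carries several symbols. With 3 arrays per group the number of arrays limits what can be called, and no detection calls were used to separate dim values from background.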
